A study of Mus musculus with 12 samples.

Results

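The genes here encode translation factors, proteins that start, elongate or end protein synthesis on the cytosolic ribosome, and their regulators and modifying enzymes. They were chosen by gene symbol: every symbol that starts with Eif1, Eif2, Eif3, Eif4, Eif5, Eif6, Eef1 or Eef2, together with Etf1, Gspt1, Gspt2, Pabpc1 and Abce1, with pseudogene symbols left out. RefSeq lists 76 protein-coding mouse genes under that rule, and 21 of them had an ac4C peak in at least 1 of 6 deposited peak lists, out of 1773 protein-coding genes with a peak in all. N4-acetylcytidine (ac4C) is a cytidine with an acetyl group that the enzyme NAT10 places in RNA. The cells were mouse peritoneal macrophages, phagocytes from the abdominal cavity, kept in culture with interferon-γ (IFN-γ, written IFN-G in the labels), a cytokine that activates macrophages, for 0, 24 or 48 h. The labels give no strain, genotype, age, sex or dose, and every group carries the IFN-γ treatment label. No group was kept for 24 or 48 h without IFN-γ, so the cytokine and the time in culture cannot be told apart.

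The 12 samples fell into 6 groups of 2, a group of ac4C-bound RNA and a group of total RNA at each of the 3 times. The 6 peak lists, 2 per time, carry the hour in their names but no sample, and the numbers 1 and 2 given to the lists of an hour imply no order. Separate cultures or animals behind the 2 samples of a group are not mentioned in the labels, and the spread between lists may be technical. With 2 lists against 2 the smallest exact two-sided permutation p is 0.33, and no test between times was made; counts are set beside the same count over all protein-coding genes. A peak list holds no expression level: a gene without a peak may be unmodified, weakly expressed or below the detection limit. Of 12 macrophage marker genes, Lyz2, Itgam and Mrc1 had a peak. None of the B cell, T cell, mast cell or neutrophil markers had one, and of 4 mesothelial markers Wt1 had one, in 48 h list 2; the lists cannot show which cells were present.

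Initiation in the cytosol begins when the eIF4 factors bind the cap of an mRNA and unwind its 5′ UTR, while eIF2 brings the initiator tRNA to a small ribosomal subunit that carries eIF1, eIF1A, eIF3 and eIF5. After the start codon is found, eIF5B joins the large subunit. The eEF1 and eEF2 factors and eIF5A then serve elongation, and eRF1 and eRF3 release the finished protein at the stop codon. In activated macrophages this machinery is a known point of control over which mRNAs are made into protein.

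The 21 genes with a peak were 27.6% of the 76 translation factor genes, beside 8.1% of all protein-coding RefSeq genes. The median control coverage at the summits of their peaks, in fragments of the peak caller's background, was 9, 7, 6.5, 11, 10 and 1 in the 6 lists in the order of time. Over all peaks in protein-coding genes it was 6, 5.02, 3.33, 4, 3 and 3. Translation factor peaks thus lay at sites of higher coverage in 5 of 6 lists. The part of transcript abundance in the share with a peak was not tested. A total of 11 and 12 translation factor genes had a peak in the 0 h lists, 8 and 8 in the 24 h lists, and 10 and 10 in the 48 h lists. The means were 11.5 ± 0.707 (SD, n = 2 lists), 8.0 ± 0 (SD, n = 2) and 10.0 ± 0 (SD, n = 2). The later lists were shorter throughout, with 820 and 699 protein-coding genes in the 0 h lists, 526 and 469 in the 24 h lists and 513 and 461 in the 48 h lists. Translation factors therefore made up 1.34% and 1.72% of the genes of the 0 h lists, 1.52% and 1.71% at 24 h, and 1.95% and 2.17% at 48 h. When each list was cut to its 611 strongest peaks, the length of the shortest, the means became 5, 7 and 10 genes. The 0 h lists then held the fewest, but the protein-coding genes left in each cut list are not given. In the uncut lists the median percentile of translation factor peaks by −log10 p was 33.9 and 38.8 at 0 h. It was 44.3 and 37.4 at 24 h and 51 and 58 at 48 h.

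**Figure D1:**
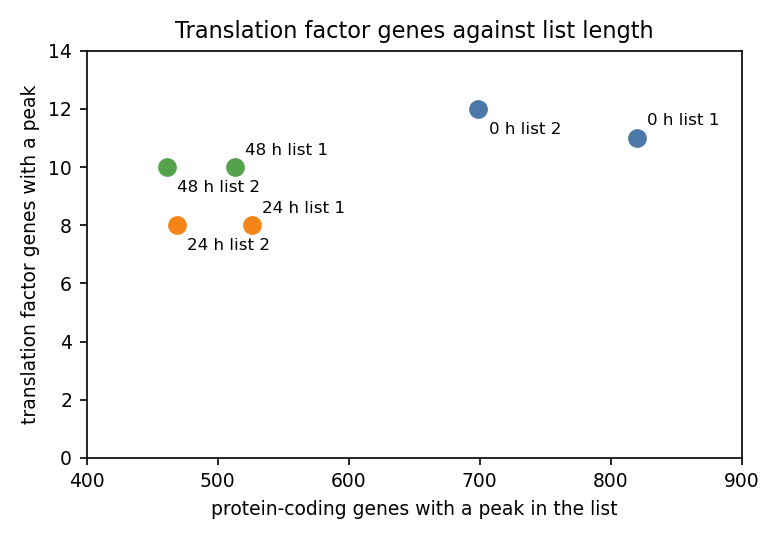
Number of translation factor genes with a peak (vertical axis) against the number of protein-coding genes with a peak (horizontal axis) in each of the 6 peak lists; each point is a list, coloured by time. The 0 h lists hold 11 and 12 translation factor genes among 820 and 699 genes, and the later lists 8 to 10 among 461 to 526.

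Peaks recurred in some of these genes and not in others. Of the 21 genes, 6 had a peak in 1 list, 6 in 2 lists, 3 in 3, 1 in 4, 2 in 5 and 3 in all 6. The 3 genes in all 6 lists were Eef1b2, Eif4a2 and Eif5b, which is 14.3% of the 21 genes, beside 3.27% of all protein-coding genes with a peak. Both 0 h lists held 8 of them (38.1%, beside 20.8% of all): Eef1b2, Eif3a, Eif3c, Eif4a1, Eif4a2, Eif5a, Eif5b and Gspt1. Together the 21 genes carried 76 peaks, and peaks of different lists that overlapped by at least 1 base formed 38 regions. Of these regions 21 were seen in 1 list and 2, in Eef1b2 and Eif4a2, in all 6.

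**Figure D2:**
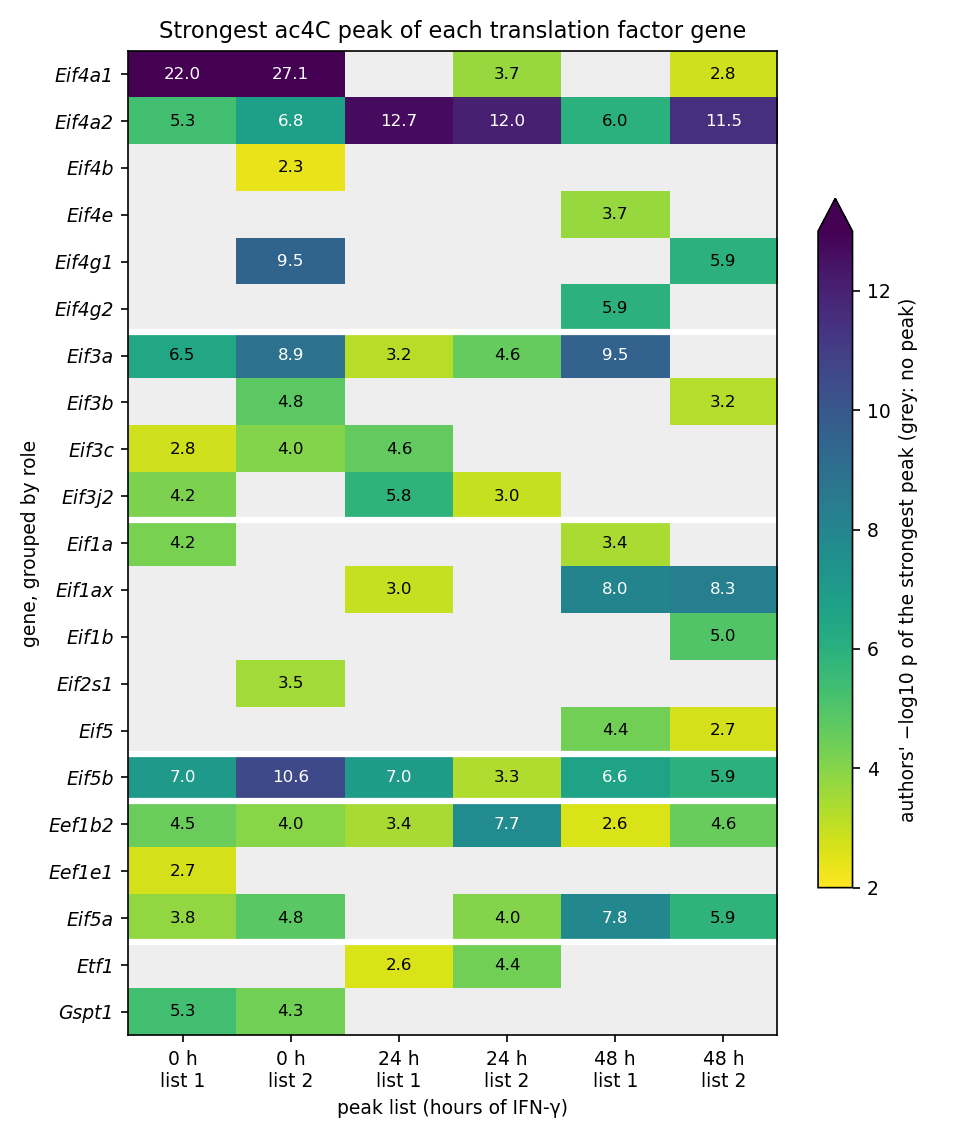
Strongest ac4C peak of each of the 21 translation factor genes (rows, grouped by role with white lines) in each of the 6 peak lists (columns), as the authors' −log10 p; grey cells hold no peak and the colour scale stops at 13. Eif4a2, Eif5b and Eef1b2 are filled in every column, and Eif4a1 reaches 22.0 and 27.1 at 0 h but 3.7 and 2.8 in the later lists that hold it.

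The eIF4 factors bind and unwind the capped 5′ end of an mRNA. Of the 17 genes with an Eif4 symbol, which include regulators, 6 had a peak. The strongest peak of any translation factor lay in the last exon of Eif4a1, which encodes the RNA helicase eIF4A1 that unwinds 5′ UTRs. It covered chr11:69557813-69558138 (GRCm39) in 0 h list 1 and chr11:69557812-69558147 in 0 h list 2. Its −log10 p, the authors' value as are all p, q and fold enrichments here, was 22.0 and 27.1 in these lists, above 94.7% and 95.5% of the peaks of each. Later lists held the region in 24 h list 2, at 3.70, and in 48 h list 2, at 2.80, and in neither 24 h list 1 nor 48 h list 1. The 0 h values thus lay above the later ones. The share of other peaks with such a fall was not counted.

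The fragments behind these Eif4a1 peaks can be recovered from fold and p. The 0 h summits held 269 and 258 pull-down fragments over a control coverage of 41 and 37, with folds of 2.82 and 3.20. In 24 h list 2 there were 93 fragments over 15, a fold of 1.98, and in 48 h list 2 there were 68 over 8, a fold of 2.07. Both the pull-down fragments and the control coverage were lower in the later lists. Divided by the lowest control coverage of its list, the control was 50.2 and 49.6 at 0 h. It was 22.7 in 24 h list 2 and 22 in 48 h list 2, so it also fell relative to depth. The part of transcript level in the lower values was not tested. With all lists brought to the coverage of the shallowest, −log10 p was 10.5 and 13.7 at 0 h, 2.30 in 24 h list 2 and 2.80 in 48 h list 2. Eif4a1 did not count as lost, since each later time had 1 list with a peak. It did count as lost at both times when only peaks with a q of 0.05 or less were kept. At matched coverage it counted as lost at 24 h. There its 2.30 in 24 h list 2 lay almost at the cutoff, a p of 0.005, and just missed it.

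Its paralog Eif4a2, which encodes the closely related helicase eIF4A2, showed another pattern. A 3′ UTR region within chr16:22932046-22932613 had a peak in all 6 lists. Its −log10 p was 2.48 and 6.81 in the 0 h lists, 12.7 and 12.0 in those of 24 h, and 5.96 and 11.5 in those of 48 h. The 24 h values exceeded both 0 h values, while a 48 h list lay below 0 h list 2. Folds were 1.70 and 2.63 in the 0 h lists, 3.08 and 3.40 in those of 24 h, and 2.1 and 3.46 in those of 48 h. The 0 h summits held 60 and 71 fragments over a control coverage of 15 and 12. The 24 h summits held 185 and 131 fragments over 17 and 12, and the 48 h summits 161 and 156 over 22 and 11. Divided by the lowest control coverage of its list, the control was 18.4 and 16.1 at 0 h. It was 28.2 and 18.2 at 24 h and 47.1 and 30.25 at 48 h, so relative to depth it was highest at 48 h. The part of transcript level in the higher values was not tested. At matched coverage the 0 h values of −log10 p were 1.40 and 3.89. The 24 h values were 7.87 and 6.85, and the 48 h values 4.68 and 11.5. Every later list then lay above both 0 h lists. The share of other peaks with such an order was not counted. The summit of 0 h list 1 lay at position 22932211 and those of the other lists between 22932399 and 22932423. The placing of fragments that match both paralogs is not described in the labels. Eif4a2 had another peak, in intron 3, in 0 h list 1 alone (chr16:22927631-22927855, fold 4.03, −log10 p 5.33); it spans Snord2, a small nucleolar RNA gene inside that intron.

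**Figure D3:**
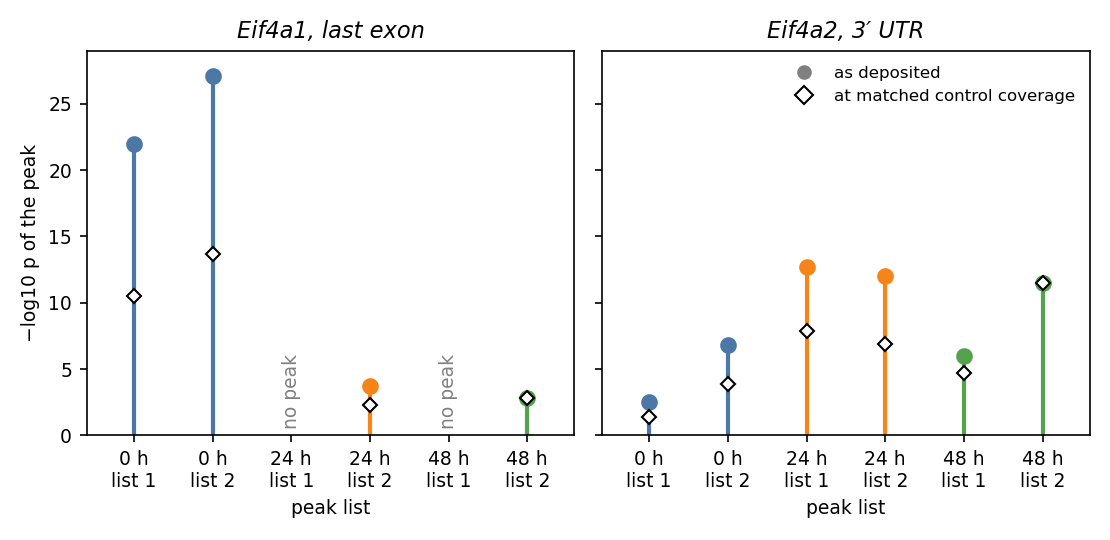
The −log10 p of the Eif4a1 last exon peak (left) and of the Eif4a2 3′ UTR peak (right) in each of the 6 lists; filled circles are the deposited values, coloured by time, and open diamonds are the values with all lists brought to the control coverage of the shallowest. Eif4a1 is highest at 0 h under both, and Eif4a2 is lowest in 0 h list 1, at 2.48 as deposited and 1.40 when matched.

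The remaining eIF4 genes had weaker or less frequent peaks. Eif4g1, the scaffold that joins cap-binding protein and helicase, had a peak across its last exon in 0 h list 2 (chr16:20510996-20511445, fold 4.41, −log10 p 9.46, 45 fragments). It had another in exon 16 in 48 h list 2 (chr16:20501339-20501556, fold 4.52, −log10 p 5.95), so these lists shared the gene but no region. Eif4g2, a relative of that scaffold used in cap-independent initiation, had a 5′ UTR peak in 48 h list 1 that began 39 bases after the annotated start of the gene (fold 3.48, −log10 p 5.95). Eif4e, the cap-binding protein, had a 3′ UTR peak in 48 h list 1 (fold 2.04, −log10 p 3.69). Eif4b, a helicase cofactor, had an exon 8 peak in 0 h list 2 (−log10 p 2.34), among the weakest of that list. For this peak 2 fragment counts fitted fold and p, and the closer was 14. No list held a peak in the other 11 eIF4 genes, among them Eif4a3, Eif4ebp1, Eif4ebp2 and Eif4h.

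eIF3 is the large complex that coats the small ribosomal subunit, and 4 of its 14 genes had a peak. Eif3a, its largest subunit, had 14 peaks in 6 regions, all toward the 3′ end of the gene. The 0 h lists held 3 and 6 of them, the 24 h lists 1 and 1, and the 48 h lists 3 and 0. With 6 peaks Eif3a had the most peaks of any gene in 0 h list 2. The region at the start of the 3′ UTR, seen at chr19:60750520-60750744 in 0 h list 1, had a −log10 p of 6.34 there, 7.56 in 0 h list 2 and 9.53 in 48 h list 1, and no peak in the other lists. The region in exon 21 had 3.91 in 0 h list 2, 3.16 and 4.59 at 24 h, and 2.66 in 48 h list 1. Exon 20 (8.89) and exon 19 (8.39) were seen in 0 h list 2 alone. Exon 17 had 3.70 and 7.55 at 0 h and 3.02 in 48 h list 1, and exon 16 had 6.45 and 3.33 at 0 h and no later peak. Thus the gene kept a peak in 5 lists while its regions changed: the 24 h lists held it only at exon 21, and 48 h list 2, with the lowest depth, did not hold it.

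The other eIF3 peaks were in 2 or 3 lists. Eif3c, a core subunit, had an exon 4 peak in 0 h list 1 (−log10 p 2.80) and 24 h list 1 (4.65), and an exon 9 peak in 0 h list 2 (4.03). Its presence in both 0 h lists therefore rests on different exons. Eif3j2 had a last exon peak in 0 h list 1 (4.16) and in both 24 h lists (5.84 and 2.98). Eif3j2 spans 2419 bases in RefSeq and its near-identical copy Eif3j1 spans 25053, and no peak was assigned to Eif3j1; which of the copies gave these fragments is uncertain.

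Eif3b, another core subunit, was one of 3 translation factor genes with a peak in the 5′ UTR, and its peak was among the closest to a gene start. It covered chr5:140405099-140405463 in 0 h list 2 and began 16 bases after the annotated start, with a fold of 3.41, a −log10 p of 4.79 and 27 fragments. In 48 h list 2 an overlapping peak began 183 bases after the start and was centred in exon 1 (fold 3.10, −log10 p 3.23, 20 fragments). The sequence around its start is shown because this peak reaches nearly to it; it is RefSeq's, for GRCm38.p6 at chr5:140419235-140419334 on the plus strand, with the 70 bases before the start in lower case and the first 30 transcribed bases in capitals. It is from another build than the peaks, so the offsets above do not have to count from the same base.
Eif3b: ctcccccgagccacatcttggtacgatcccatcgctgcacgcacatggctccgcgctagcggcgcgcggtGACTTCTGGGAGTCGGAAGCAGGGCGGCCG
A run of C spaced by 2 other bases, searched as CNNCNNCNNCNN on the transcribed strand, is a pattern reported for ac4C. It was not found in the first 50 transcribed bases of Eif3b; the rest of the peak was not searched. RefSeq starts were given for 17 of the 21 genes with a peak, and 8 of these (47.1%) held it within that window at 1 or more starts. So did 23 of 57 translation factor genes in all (40.4%) and 28.2% of 17491 protein-coding genes. Most of the peaks of these genes lie far from their start, and no test of the shares was made.

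The factors that bring the initiator tRNA and read the start codon had 5 of 17 genes with a peak, none of them in both 0 h lists. Eif1ax, an eIF1A gene of the X chromosome, had a 3′ UTR peak in both 48 h lists (chrX:158168487-158168711 in list 1 and chrX:158168452-158168690 in list 2). The folds were 5.40 and 5.87 and the −log10 p 8.02 and 8.26, from 38 and 27 fragments over a control coverage of 1.25 and 0.364. In list 2 that is the lowest control coverage of the list, so its fold was taken against the background level alone. No 0 h or 24 h list held that region, though 24 h list 1 held a weak peak in intron 3 (−log10 p 2.96). At matched coverage the 48 h peaks had 6.05 and 8.26. It was the only gene of the 21 that counted as gained at 48 h under the cut at a q of 0.05 and under the cut at a fold of 4. Its relative Eif1a had a 3′ UTR peak in 0 h list 1 (4.22) and 48 h list 1 (3.38).

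Eif5, which makes eIF2 release the initiator tRNA, had a 3′ UTR peak in each 48 h list, at chr12:111511766-111511989 in list 1 (4.35) and chr12:111511090-111511328 in list 2 (2.70). These peaks do not overlap. Eif1b had a 3′ UTR peak in 48 h list 2 (fold 4.13, −log10 p 4.99). Eif2s1, the eIF2 subunit that the stress kinases phosphorylate, had a 5′ UTR peak in 0 h list 2 (fold 2.82, −log10 p 3.53), 4701 bases downstream of the gene start. The 5 eIF2B genes, which recharge eIF2, had no peak, and neither did the 4 eIF2 kinase genes Eif2ak1 to Eif2ak4. Among these kinases is PKR (Eif2ak2), whose gene is known to be induced by interferon.

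Eif5b, the GTPase that joins the subunits, had 13 peaks in 7 regions and a peak in every list. No region was in all 6. The exon 10 region began at chr1:38075069 in 3 lists and had a −log10 p of 6.41 and 10.6 at 0 h, 6.95 in 24 h list 1 and 5.95 in 48 h list 2. Its highest fold, 6.79 in 0 h list 2, was the largest fold of any translation factor peak, from 29 fragments. The exon 4 region had 7.03 in 0 h list 1 and 5.27 and 3.29 at 24 h. A region centred in intron 20, with ends in exons 19 and 21, was in both 48 h lists (6.6 and 5.63, from 28 and 21 fragments) and in no other list. The control coverage there was 0.832 and 0.364, the latter the lowest of 48 h list 2. Peaks in exon 5 and intron 7 were in 0 h list 1, in exon 18 in 24 h list 2 and in the last exon in 24 h list 1. As for Eif3a, the gene was found again across lists more often than any of its regions. Eif6, which keeps the subunits apart, had no peak.

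**Figure D4:**
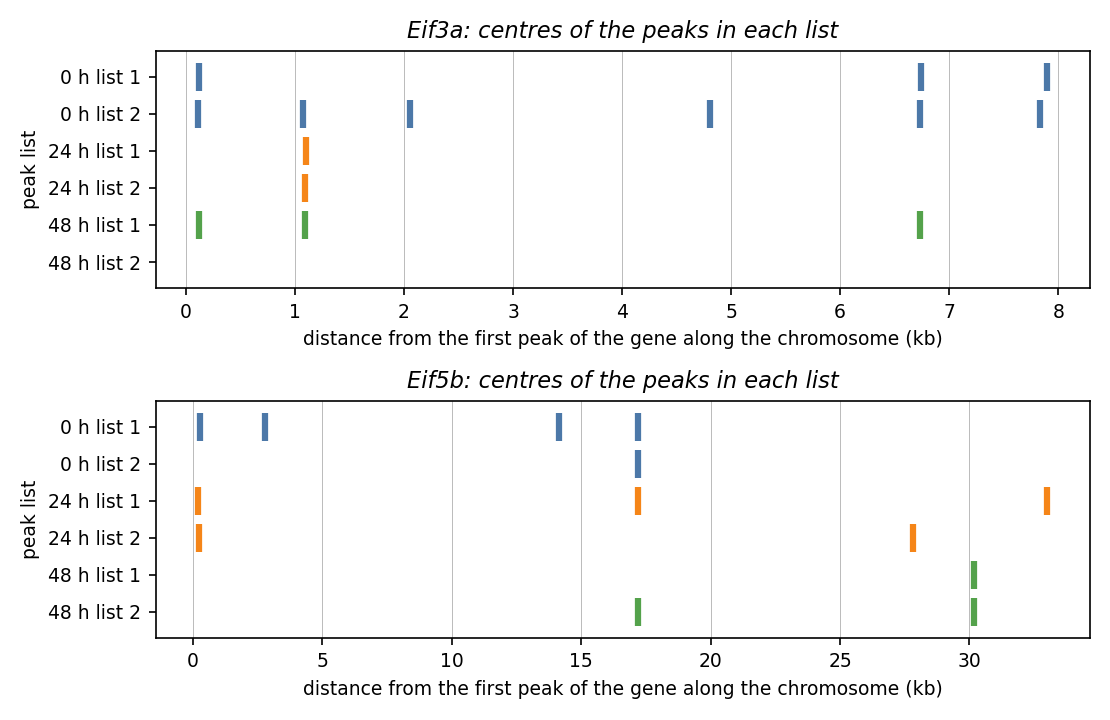
Centres of the peaks of Eif3a (upper panel) and Eif5b (lower panel) in each of the 6 lists, as the distance in kb along the chromosome from the first base of the gene's peaks; each mark is a peak, coloured by time. The Eif3a marks are densest in 0 h list 2, with 6 peaks, and the Eif5b marks line up at exon 10 in 4 lists.

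The 17 genes grouped under elongation by symbol include enzymes that modify the factors, such as Eef1akmt1, Eef2kmt and Eef2k. Of the 17 genes, 3 had a peak, and 2 of these recurred. Eef1b2, the exchange factor that reloads eEF1A with GTP, had a peak in exon 3 in all 6 lists, at chr1:63217595-63217819 in 0 h list 1. Its −log10 p was 4.50 and 3.97 in the 0 h lists, 3.43 and 7.68 in the 24 h lists, and 2.61 and 4.57 in the 48 h lists. The lists of a time differed as much as the times. Its folds ran from 1.49 to 2.91, on 97 to 174 fragments, where 174 is the closer of 2 counts that fitted fold and p. The peaks ended 12 to 111 bases before Gm26457, a small nucleolar RNA gene in the neighbouring intron. Eif5a, which helps ribosomes past difficult peptide bonds, had a 3′ UTR peak in every list but 24 h list 1, at chr11:69807765-69808124 in 0 h list 1. Its −log10 p was 3.78 and 4.81 in the 0 h lists, 4.03 in 24 h list 2, and 7.84 and 5.86 in the 48 h lists. Both 48 h values lay above both 0 h values. The share of other peaks with such a rise was not counted. The folds were 1.37 and 1.47 in the 0 h lists, 1.52 in 24 h list 2, and 2.1 and 1.96 in the 48 h lists. The control coverage was 104 and 87 at the 0 h summits and 31 and 29 at the 48 h summits. The fragments were 327 and 275 against 226 and 223. For 0 h list 1, 2 fragment counts fitted fold and p, and the closer is given. Divided by the lowest control coverage of its list, the control was 127.3 and 116.5 at 0 h. It was 87.8 in 24 h list 2 and 66.3 and 79.8 at 48 h, so it also fell relative to depth. The part of transcript level in the rise was not tested. At matched coverage −log10 p was 2.11 and 2.74 at 0 h, 2.52 at 24 h and 6.24 and 5.86 at 48 h. Eef1e1, a scaffold of the tRNA synthetase complex, had a weak 3′ UTR peak in 0 h list 1 (2.69). No list held a peak in Eef1a1, Eef1d, Eef1g or Eef2, the core elongation factors, or in the kinase Eef2k.

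Of the 5 genes for release, recycling and poly(A) binding, 2 had a peak. Gspt1 (eRF3a), the GTPase of termination, had an exon 4 peak at chr16:11056735-11056961 in 0 h list 1 and chr16:11056732-11056961 in 0 h list 2, with folds of 3.26 and 3.45 and a −log10 p of 5.31 and 4.33. No later list held it. These peaks rested on 35 and 20 fragments, and at matched coverage they had 2.62 and 2.48. Etf1 (eRF1), which reads the stop codon, had no peak at 0 h or 48 h. It had one in exon 8 in 24 h list 1 (−log10 p 2.62) and one in exon 10 in 24 h list 2 (4.35), which do not overlap. No list held a peak in Gspt2, in the recycling factor Abce1 or in the poly(A)-binding protein Pabpc1.

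Loss and gain were counted over genes. A gene was lost at a later time when both 0 h lists and neither list of that time held a peak in it, and gained in the reverse case; both times share the 0 h lists. Of the 8 translation factor genes in both 0 h lists, Gspt1 was lost at 24 h (12.5%, beside 41.7% of the protein-coding genes that could be lost). Eif3c and Gspt1 were lost at 48 h (25%, beside 38.2%), and Gspt1 was lost at both times (12.5%, beside 27.4%). Of the 6 genes with a peak in later lists only, Etf1 was gained at 24 h, beside 6.9% of all genes that could be gained. Eif1ax and Eif5 were gained at 48 h, beside 7.06%, and none was gained at both times, beside 1.28%. With so few genes no test was made of these shares against the background.

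By region, 4 of the 9 regions in both 0 h lists were lost at 24 h, beside 50.3% of all such regions of protein-coding genes, and 2 were lost at 48 h, beside 46.1%. Those lost at 24 h were in Gspt1 and in Eif3a at exon 16, exon 17 and the 3′ UTR; Gspt1 and Eif3a exon 16 were also lost at 48 h. Of 13 regions in later lists only, none was gained at 24 h, beside 3.7%, and those in the Eif1ax 3′ UTR and Eif5b intron 20 were gained at 48 h, beside 4.7%. Etf1 and Eif5 were gained as genes but not as regions.

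These counts moved when a list was left out, and so did the background. Without 0 h list 1, 12 genes had a 0 h peak that could be lost. Of these, 5 were lost at 24 h (Eif2s1, Eif3b, Eif4b, Eif4g1 and Gspt1; beside 58.8% of all protein-coding genes), 4 at 48 h (56.4%) and 3 at both times (43.6%). Without 0 h list 2, of 11 genes 3 were lost at 24 h (58%), 4 at 48 h (53.7%) and 2 at both times (42.2%). Without 24 h list 1, of 8 genes 2 were lost at 24 h (60.7%) and 2 at both times (33.1%). Without 24 h list 2, 3 of 8 were lost at 24 h (53.1%), Eif4a1 and Eif5a among them. Gains at 24 h numbered 2 of 8 genes without 0 h list 1 (7.96%) and 2 of 6 without 24 h list 2 (46.7%); Eif1ax was then the 1 gene gained at both times (4.19%). Losses at 48 h numbered 3 of 8 without either 48 h list (54.2% without list 1 and 58.5% without list 2). Gains at 48 h numbered 4 of 5 without 48 h list 2 (41.5%), with Eif4e and Eif4g2, and 3 of 4 without 48 h list 1 (31.8%). Gspt1 was among the losses at both times with any list left out. It had no peak at a q of 0.05 or less, nor among the 611 strongest peaks, so it could not be lost there. With each list cut to its 611 strongest peaks, 3 of the genes could be lost and none was, beside 35.7% of all genes at 24 h and 29% at 48 h. Of 10 that could be gained, 2 were gained at 24 h (8.06%), 3 at 48 h (7.8%) and 1, Eef1b2, at both times (1.48%).

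The place of the peaks in the transcript was described by the centre of each. Of 76 peaks, 22 lay in the 3′ UTR (28.9%, 95% Wilson interval 20% to 40%), against 58% of the 4019 peaks in protein-coding genes. Exons other than the last held 36 (47.4%, interval 36.5% to 58.4%), against 19.3%. Last exons held 10 (13.2%, against 12%), introns 5 (6.58%, against 7.09%) and 5′ UTRs 3 (3.95%, against 3.56%). The intervals cover counting error only and take the peaks as independent, which peaks of 1 gene or of 1 region in several lists are not. In every list the 3′ UTR share was below that of all peaks in protein-coding genes. It was 29.4% and 17.6% against 64.7% and 59.2% in the 0 h lists. In the 24 h lists it was 10% and 22.2% against 51.4% and 45.1%. In the 48 h lists it was 50% and 45.5% against 54.1% and 69.2%. The mean over lists was 29.1% ± 15.8 (SD, n = 6 lists), and 40.1% when Eif3a and Eif5b, which hold 27 of the 76 peaks, were not counted.

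Counted by gene, 9 of the 21 genes (42.9%) had a peak in the 3′ UTR, against 65.8% of the other 1752 genes with a peak. Again 9 (42.9%) had one in an exon other than the last, against 22.6%, and 3 (14.3%) had one in the 5′ UTR, against 4.74%. Those 5′ UTR peaks, in Eif2s1, Eif3b and Eif4g2, were in 1 list each. Of the 36 peaks in other exons, 26 (72.2%) had both ends in the flanking introns, against 54.7% of 741 such peaks in other genes, so the peak was often wider than the exon. A small nucleolar RNA gene was the closest gene start for 10 of the 76 peaks (13.2%, against 1.6% of 3943 peaks in other protein-coding genes). By gene this concerned 4 of 21 (19%, against 1.77%): Eef1b2, with 6 of the 10 peaks, Eif4a2, Eif4g1 and Eif5. The Eif4g1 and Eif5 peaks lay 1433 to 4265 bases from that gene and those of Eef1b2 and Eif4a2 within 111. Whether small nucleolar RNA fragments contributed was not tested.

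**Figure D5:**
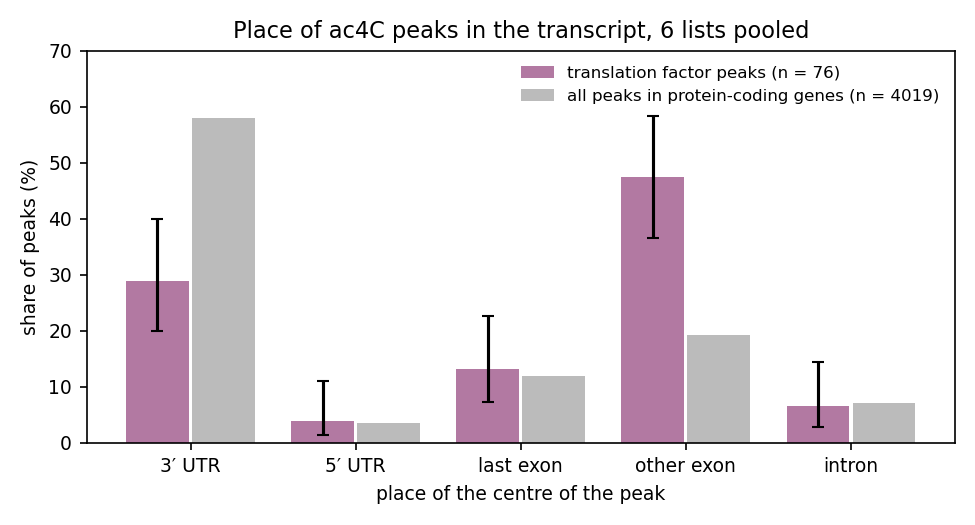
Share of peaks (%) by the place of the peak centre, for the 76 translation factor peaks and for all 4019 peaks in protein-coding genes, the 6 lists pooled; error bars are 95% Wilson intervals of the translation factor shares. The translation factor bar is 28.9% against 58% in the 3′ UTR and 47.4% against 19.3% in exons other than the last.

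The strength of these peaks was not unusual. Their median fold was 2.68, beside 3.04 for all peaks in protein-coding genes, and their folds ran from 1.37 to 6.79. A q of 1, which marks a peak that does not survive correction over the genome, was given to 28 of the 76 (36.8%, beside 35.8% of all). A q of 0.05 or less was given to 27 (35.5%, beside 41.9% of all). Brought to the coverage of the shallowest list, 58 of the 76 peaks kept a p of 0.005 or less. Per list this was 58.8% and 82.4% in the 0 h lists against 70.6% and 75% of all peaks in protein-coding genes, 70% and 55.6% against 77.8% and 64.6% in the 24 h lists, and 91.7% against 86.6% in 48 h list 1; 48 h list 2 is itself the shallowest.

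Other genes of the translation pathway give the setting. Of 86 cytosolic ribosomal protein genes 13 had a peak, and of 20 cytosolic aminoacyl-tRNA synthetase genes, which charge tRNAs, 8 had one. So did 7 of 14 genes for partners of the poly(A)-binding protein and mRNA repressors, 4 of 10 for helicases and accessory initiation factors, 3 of 8 for the eIF2 stress response, 3 of 17 for mTOR and translational control, and 1 of 7 for ribosome rescue. Beside these stand 8.1% of all protein-coding genes and 27.6% of the translation factor genes. The synthetase, poly(A)-binding, helicase and stress response groups lay above the share of the translation factors. The ribosomal protein, mTOR and rescue groups lay below it. A raised share was thus not particular to the translation factors. Cpeb4, which binds 3′ UTR elements to control poly(A) tails, had a peak in every list but 48 h list 2. Atf4, the transcription factor translated when eIF2 is phosphorylated, had a peak in 4 lists (0 h list 1, both 24 h lists and 48 h list 2), the strongest in its last exon with a −log10 p of 16.0. The isoleucyl-tRNA synthetase gene Iars was also in 4 lists. Of the 2 ribosomal protein genes in both 0 h lists, Rplp1, a protein of the ribosomal stalk, was lost at both times. Neither the 2 synthetase genes in both 0 h lists nor the 2 of the poly(A)-binding group were lost at both. The share over all protein-coding genes that could be lost was 27.4%. None of these pathway genes was gained at both times, beside 1.28% of all that could be gained.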

How the data were processed

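The 3 times of IFN-γ treatment gave 12 libraries, 2 of ac4C-bound and 2 of total RNA per time; the total RNA libraries themselves were not analysed here. The submitters' processing notes name MACS2 2.1.0, BWA 0.7.12 and the build GRCm39; their settings and the control library are not described in the labels. The authors deposited 6 peak tables, each giving, per the file headers, fold enrichment (a ratio at the summit) and p-value and q-value as −log10. Coordinates are printed as deposited, and starts may be off by 1 base. BWA does not align across splice junctions.

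A peak was 1 region with its best summit, placed by the authors' annotation of its centre. A gene had a peak when that centre lay in its body. Protein-coding types came from RefSeq GRCm38.p6, which matched 94.4% of 2096 gene symbols; 1 pseudogene symbol was left out. Every gene with a peak is named, and from the pathway lists those in 4 or more lists or lost or gained at both times. An item of those lists is not reported here. The genes, lists and counts were chosen with earlier results of these data known.

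Depth is not given. Fold and p were reproduced, within 0.005 of −log10 p, by whole fragments times 1 factor per list (0.259 to 0.468) at 99.9% or more of summits, checked on simulated data; 65 of the 76 peaks had 1 solution. Where several fitted, the closest was used. This held for peaks of Eef1b2, Eif4b and Eif5a, among others. Median summits held 45 to 51 fragments. The lowest control coverage gave relative control depths of 44.5% to 100% of the deepest list, lowest at 48 h. Alternatives were q of 0.05 or less, fold of 4 or more, the 611 strongest peaks, matched coverage (p of 0.005 or less), assignment by exon, another region overlap and leaving out each list. Python 3.11.15, pandas 2.3.3, scipy 1.17.1 and matplotlib 3.10.9 were used.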

Additional observations from a re-analysis of the deposited data

How the results depend on the processing

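Shares in brackets are those of all protein-coding genes under the same setting. At a q of 0.05 or less, 10 translation factor genes had a peak (3.78%), with means of 4, 2.5 and 4 per list at 0, 24 and 48 h, and 0 were in all 6 lists (2.54%). Of 3 that could be lost, 2 were lost at 24 h (Eif3a, Eif4a1; 51.3%) and 1 at 48 h (Eif4a1; 49.2%); of 5 that could be gained, 0 were gained at 24 h (4.66%) and 1 at 48 h (7.63%). The 3′ UTR share was 45.8%. At a fold of 4 or more, 6 genes had a peak (2.87%), with means of 2, 0.5 and 3, 0 were in all 6 lists (0.318%), and the 3′ UTR share was 18%. No gene had such a peak in both 0 h lists, so the 0 losses at 24 h, 48 h and both say nothing; of 2 that could be gained, 0 were gained at 24 h (2.17%) and 1 at 48 h (6.19%). With the 611 strongest peaks of each list, the 0 h mean was 5, 1 gene (Eif5b) was in all 6 lists (3.46%), 0 of 3 were lost at 24 h, 48 h or both, 2 were gained at 24 h (Eef1b2, Eif3j2) and 1 at both times. At matched coverage the 24 h mean was 5, and 1 gene (Eif4a2) was in all 6 lists (3.3%). Of 6 that could be lost, 2 were lost at 24 h (44.1%) and 1 at 48 h (35.6%), and 0 of 7 were gained at 24 h (5.11%). The cause of these changes was not tested. Assigning genes by exon moved no count by over 1.5 times. An overlap of 50% of the shorter region was run for the regions lost and gained at both times only, and left them at 2 and 0.

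With each list left out in turn, genes with a peak ranged from 19 to 21, in all 6 lists from 3 to 4, and the means from 11 to 12 at 0 h, 8 to 8 at 24 h and 10 to 10 at 48 h. Losses ranged from 1 to 5 at 24 h, 2 to 4 at 48 h and 1 to 3 at both times, gains from 1 to 2, 2 to 4 and 0 to 1, and the 3′ UTR share from 24.9% to 32.9%. No paired analysis was possible because the list numbers match no sample and no result comes from a test. The 48 h lists had the lowest control depth. Pull-down depth ran otherwise: it was 91.5% and 78% of the deepest in the 0 h lists, 100% and 98% at 24 h, and 78% and 68.5% at 48 h. As a region without a peak gives no value, losses and depth cannot be told apart in this design.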
